A study of Mus musculus with 2 samples.

Results

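The miR-200 family and the epithelial miRNA genes Mir203 and Mir205 were examined in small RNA libraries of the mouse adrenal gland. The set was chosen by name and held 7 of the 2202 miRNA genes in the count tables, namely Mir200b, Mir200a and Mir429 on chromosome 4, Mir200c and Mir141 on chromosome 6, and Mir203 and Mir205 at loci of their own. A gene counted as detected where each library had 10 counts or more, which all 7 members and 358 miRNA genes in total did. The glands came from female B6CASTF1/J mice, a first-generation cross between the laboratory strain C57BL/6J and the wild-derived strain CAST/EiJ, at 14 days of age, with no treatment given in the labels. There was 1 group of 2 biological replicates. Replicate 2 carries the label of a single numbered female and replicate 1 that of 3 females, and both name the same donor, so the number of animals behind each library is not settled by the labels. The replicates are compared to measure how far the members differ between libraries of 1 tissue, and no condition is compared. The tables hold miRNA genes alone, so markers of adrenal cortex and medulla cells among messenger RNAs were not measured here and the tissue label could not be checked with them.

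MicroRNAs are cut from hairpin precursors and guide Argonaute proteins to messenger RNAs, mainly through the seed, bases 2 to 8 of the mature strand. The miR-200 family is known for keeping cells epithelial: its members repress the transcription factors Zeb1 and Zeb2, which switch off E-cadherin, and those factors in turn repress the genes of the family. miR-203 is known from skin, where it limits the stem cell factor p63 as keratinocytes differentiate, and miR-205 from stratified and glandular epithelia, where it also represses Zeb1 and Zeb2. Of the adrenal gland, the steroid-making cortex derives from the coelomic epithelium and the catecholamine-making medulla from the neural crest.

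The mature strands usually regarded as the functional ones are shown because the seed divides the miR-200 family differently from its genome loci. They are from RefSeq, build GRCm38.p6, read 5′ to 3′, with the seed in capitals. The first 3 share 1 seed and come from both loci, as do the next 2. All 7 members had an entry in that table.
mmu-miR-200b-3p (chromosome 4): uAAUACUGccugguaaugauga
mmu-miR-429-3p (chromosome 4): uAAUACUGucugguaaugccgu
mmu-miR-200c-3p (chromosome 6): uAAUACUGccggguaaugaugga
mmu-miR-200a-3p (chromosome 4): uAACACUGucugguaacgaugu
mmu-miR-141-3p (chromosome 6): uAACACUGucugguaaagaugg
mmu-miR-205-5p (chromosome 1): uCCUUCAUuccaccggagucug

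Counted from 1 at the 5′ end, the seeds of the family differ by the single substitution C4U from miR-200a to miR-200b. No other mature miRNA of the table carried either seed. Members with the same seed are near copies of each other. miR-200b and miR-200c differed at 2 of the 22 positions compared (U11G, A22G), miR-200a and miR-141 also at 2 (C17A, U22G), and miR-200b and miR-429 at 4. The submitters' rule for telling such near copies apart was not given in the sources used here, and the counts of members with 1 seed are uncertain to that extent. Counts are per hairpin gene and do not tell the 5p from the 3p strand.

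By locus, Mir200b (ENSMUSG00000065549.3) lies on chromosome 4 from 156055681 to 156055750, Mir200a (ENSMUSG00000065400.1) from 156054896 to 156054985, and Mir429 (ENSMUSG00000065427.1) from 156053905 to 156053987, all on the minus strand in mm10 coordinates of GENCODE M21. They stand 695 and 908 bases apart inside introns of Ttll10, and Mir429 also overlaps an exon of the noncoding transcript Gm13648. Mir200c (ENSMUSG00000065462.3) lies on chromosome 6 from 124718322 to 124718390 and Mir141 (ENSMUSG00000065474.1) from 124717914 to 124717985, 336 bases apart on the minus strand. Both fall in an intron of the noncoding gene Gm15884, and Mir141 also overlaps an exon of Gm29008. Mir203 (ENSMUSG00000065574.1) is intergenic on the plus strand of chromosome 12, from 112130880 to 112130955. Mir205 (ENSMUSG00000065533.1) lies in a transcribed exon of 4631405K08Rik, a long intergenic noncoding RNA gene, on the minus strand of chromosome 1, from 193507463 to 193507530.

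The members were a minor part of the miRNAs of the gland, and Mir203 made up most of it. Together they held 0.112% of miRNA counts in replicate 2, with a Wilson 95% interval of 0.110 to 0.115, and 0.159% in replicate 1, with one of 0.155 to 0.163, a mean of 0.136% ± 0.0329 (SD, n = 2). Replicate 2 had 5034257 counts on miRNA genes and replicate 1 had 3797107, the totals behind the CPM values, counts scaled to a library sum of 1000000 over miRNA genes. A gene at 0 could hold up to 3 counts, or 0.596 CPM in replicate 2 and 0.790 CPM in replicate 1. Molecular identifiers are not mentioned in the labels, and intervals and limits cover counting error only. Mir122, the main miRNA of hepatocytes, took 21.5% of the counts of replicate 2 against 0.290% in replicate 1, which lowers every other CPM of replicate 2. With Mir122 left out of the totals the members held 0.151% ± 0.0115 (SD, n = 2). In bulk tissue, fewer cells of a type and less RNA per cell cannot be told apart.

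Mir203, which restrains self-renewal in the epidermis, had 3773 counts in replicate 2 and 5563 in replicate 1. These are 749 CPM in replicate 2 and 1465 CPM in replicate 1, with a mean level of 1107 ± 506 CPM (SD, n = 2) and rank 72 among all 2202 genes. It held 66.6% of the members' counts in replicate 2 and 92.1% in replicate 1. Its neighbours in level, the genes next to it by mean CPM, were Mir181c at 1121 ± 412 CPM above and Mir376a at 1104 ± 176 CPM below (SD, n = 2).

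The chromosome 4 genes stood next, on the strength of replicate 2. Mir200b had 946 counts (188 CPM) in replicate 2 and 64 counts (16.9 CPM) in replicate 1. Mir429 had 572 counts (114 CPM) in replicate 2 and 66 counts (17.4 CPM) in replicate 1. Mir200a, at the same locus but with the other seed, had 91 counts (18.1 CPM) in replicate 2 and 28 counts (7.37 CPM) in replicate 1. All 3 were higher in replicate 2 on the CPM scale. Mean levels were 102 ± 121 CPM for Mir200b, 65.5 ± 68.1 for Mir429 and 12.7 ± 7.57 for Mir200a (SD, n = 2), so the SD exceeded the mean for the first pair.

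The chromosome 6 genes went the other way. Mir200c had 142 counts (28.2 CPM) in replicate 2 and 239 counts (62.9 CPM) in replicate 1, a mean of 45.6 ± 24.6 CPM (SD, n = 2). Mir141 had 11 counts (2.19 CPM) in replicate 2 and 32 counts (8.43 CPM) in replicate 1, a mean of 5.31 ± 4.41 CPM. Mir141 was the least abundant member, and its replicate 2 value lies just above the detection minimum of 10 counts. Mir205 had 128 counts (25.4 CPM) in replicate 2 and 45 counts (11.9 CPM) in replicate 1, a mean of 18.6 ± 9.60 CPM. Both chromosome 6 genes were thus lower in replicate 2, and Mir205 was higher there.

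**Figure D1:**
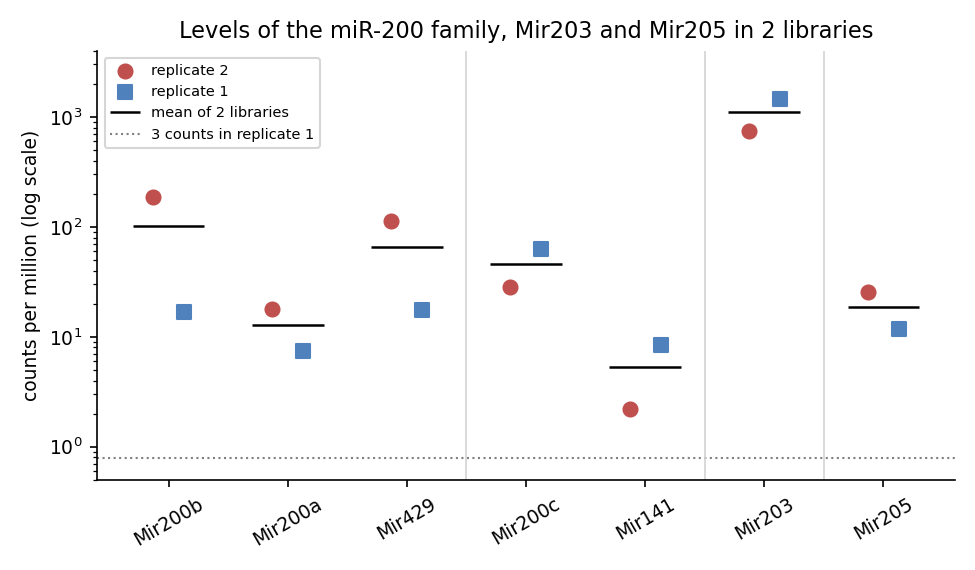
CPM on a log axis for each of the 7 members, with replicate 2 as circles, replicate 1 as squares and the mean of the 2 libraries as a bar; the dotted line marks 3 counts in replicate 1 (0.790 CPM). Mir203 lies above all others in both libraries, the chromosome 4 genes and Mir205 are higher in replicate 2, and the chromosome 6 genes and Mir203 are lower there.

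The order by mean CPM was Mir203, Mir200b, Mir429, Mir200c, Mir205, Mir200a and Mir141. Levels were set per gene, and dividing them by hairpin length left all 7 places as they were. Of the 6 steps in this order, the ranges of the 2 libraries did not overlap between Mir203 and Mir200b, where the means were 10.8-fold apart, nor between Mir200c and Mir205, 2.45-fold apart. At the other 4 steps the ranges overlapped, so that Mir200b, Mir429 and Mir200c cannot be placed among themselves, nor Mir200a against Mir141. Beyond adjacent steps, the ranges of Mir200b and Mir429 also overlapped those of Mir205 and Mir200a. Both Mir200b and Mir429 still lay above Mir205 and Mir200a in each library. Mir205 lay above Mir200a in each library, though their ranges overlapped. The genes next above the other members in mean level were Mir496a for Mir200b, Mir20b for Mir429, Mir345 for Mir200c, Mir1291 for Mir205, Mir29b-1 for Mir200a and Mir669e for Mir141, and those next below Mir376b, Mir138-1, Mir467c, Mir196a-1, Mir6240 and Gm49346. In replicate 1 alone the order ran Mir203, Mir200c, Mir429, Mir200b, Mir205, Mir141 and Mir200a.

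The loci of the miR-200 family exchanged places between the libraries. The chromosome 4 locus summed to 1609 counts in replicate 2 and 158 in replicate 1, and the chromosome 6 locus to 153 in replicate 2 and 271 in replicate 1. The chromosome 4 locus therefore held 91.3% of the family in replicate 2, with a Wilson 95% interval of 89.9 to 92.5, and 36.8% in replicate 1, with one of 32.4 to 41.5. As a share of all miRNA counts, it held 0.0320% in replicate 2 and 0.00416% in replicate 1, a mean of 0.0181% ± 0.0197 (SD, n = 2). The chromosome 6 locus held 0.00304% in replicate 2 and 0.00714% in replicate 1, a mean of 0.00509% ± 0.00290 (SD, n = 2). On the mean share, the loci were not separated by their spread between libraries.

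**Figure D2:**
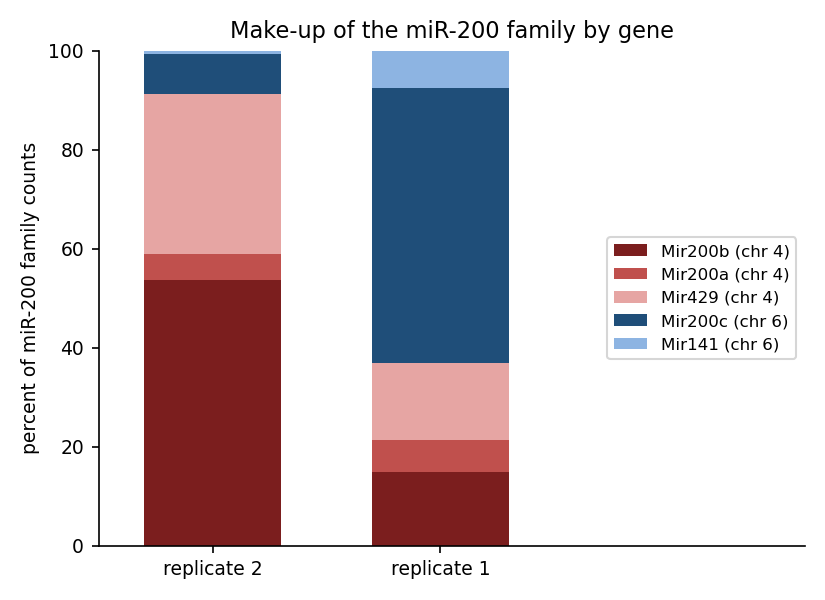
Percent of the summed counts of the 5 miR-200 family genes held by each gene, with replicate 2 on the left (1762 counts) and replicate 1 on the right (429 counts); red tones mark chromosome 4 and blue tones chromosome 6. The red part is 91.3% of the bar in replicate 2 and 36.8% in replicate 1.

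The split of the family by seed differed less between the libraries than its split by locus. The group of Mir200b, Mir429 and Mir200c held 94.2% of the family in replicate 2, with a Wilson 95% interval of 93.0 to 95.2, and 86.0% in replicate 1, with one of 82.4 to 89.0. In CPM the group stood at 330 in replicate 2 and 97.2 in replicate 1. The group of Mir200a and Mir141 stood at 20.3 CPM in replicate 2 and 15.8 CPM in replicate 1, a mean of 18.0 ± 3.15 (SD, n = 2), its members moving in opposite directions. Chromosome 4 genes gave 91.4% of the counts with the miR-200b seed in replicate 2 and 35.2% in replicate 1. Mir200a gave 89.2% of the counts with the miR-200a seed in replicate 2 and 46.7% in replicate 1.

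To compare the libraries gene by gene, library sizes were scaled by TMM, and each of the 358 detected genes had an exact two-sided binomial test of its pair of counts with Benjamini-Hochberg adjustment over all 358. Called genes had an adjusted p under 0.05 together with a log2 ratio at or beyond 1 in either direction. This test sets the reads of 1 library against those of the other and measures departure from counting error, not the spread between animals, and no replicate check of a ratio exists. Of the 7 members, 4 were called higher in replicate 2, against 9.22% of all detected genes, and 1 was called lower, against 8.66%. The median log2 ratio of the 7 was 1.52, beside -0.06 over all 358 genes. The members were named as a set with these libraries' results known, so the counts are a description.

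The log2 ratio of Mir200b was 3.90, with a 95% counting interval of 3.54 to 4.30, a 14.9-fold higher level in replicate 2, with an exact binomial adjusted p of 1.41e-204. Its ratio was the fifth highest of the 358 genes. Mir429 had a log2 ratio of 3.13 (2.77 to 3.53), 8.75-fold higher and at place 7 of the same ranking. Mir200a, at 1.71 (1.10 to 2.39), and Mir205, at 1.52 (1.03 to 2.05), were 3.26-fold and 2.87-fold higher, at places 13 and 18. The 95th percentile of all log2 ratios was 1.47, so the 4 members called higher lay above it.

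Mir141 was the member called lower, with a log2 ratio of -1.48, a 95% counting interval of -2.65 to -0.49 and an exact binomial adjusted p of 0.00337. It took place 345 of 358 from the highest ratio down, on 11 counts in replicate 2 and 32 in replicate 1. Mir200c, at -0.73 (-1.04 to -0.42), and Mir203, at -0.54 (-0.60 to -0.48), differed beyond counting error but missed the ratio minimum, and 67.9% of all detected genes passed the adjusted p without it. The lower quartile of all ratios was -0.51, so Mir203 lay close to it.

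edgeR's exact test used a dispersion estimated from the same pair of libraries, a biological coefficient of variation of 0.444, and is no independent measure of the spread between animals. It called Mir200b higher, with its adjusted p at 0.012 by that exact test, and 0 members lower. Over all genes it called 1.4% higher and 0.279% lower. The adjusted p of Mir429 was 0.0924 by the same exact test, and that of the other 5 members was 1.

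**Figure D3:**
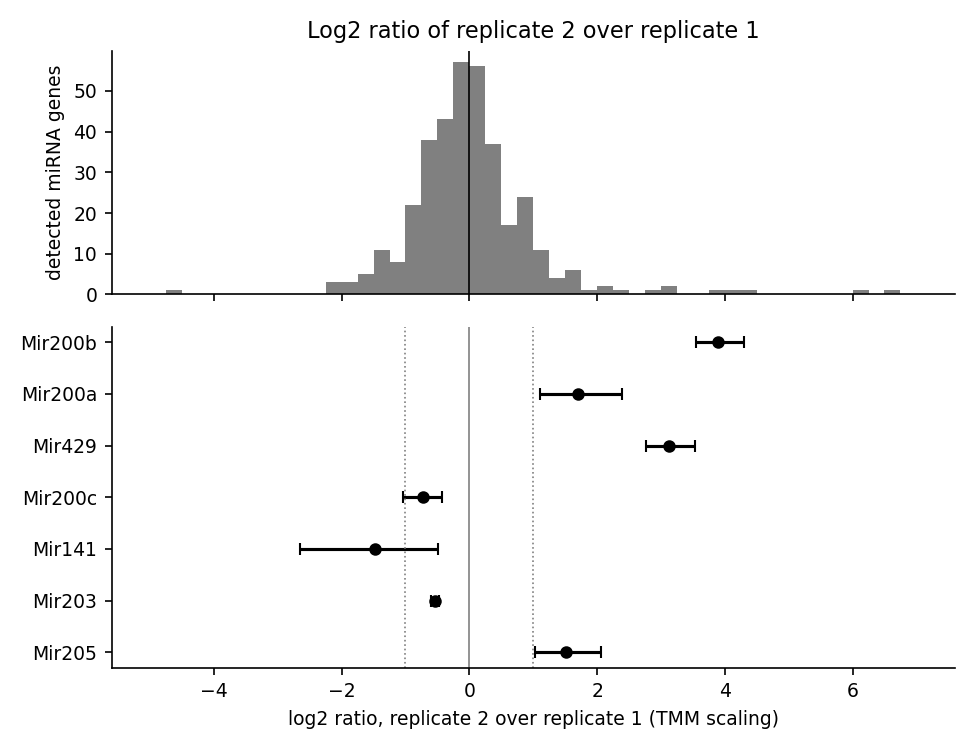
Upper panel, number of detected miRNA genes (358 in all) by log2 ratio of replicate 2 over replicate 1; lower panel, the same ratio for each member with its exact 95% counting interval, with dotted lines at -1 and 1. Mir200b at 3.90 and Mir429 at 3.13 lie in the sparse right tail, and Mir203 at -0.54 lies within the bulk of genes.

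Differences between loci can be stated without any library scaling, as the change of one locus relative to another. The log2 ratio of the chromosome 4 locus exceeded that of the chromosome 6 locus by 4.17 (exact conditional 95% interval 3.79 to 4.56), an 18.0-fold change of their proportion. It exceeded that of Mir203 by 3.91 (3.66 to 4.16) and that of Mir205 by 1.84 (1.26 to 2.40). The ratio of the chromosome 6 locus differed from that of Mir203 by -0.26 (-0.57 to 0.03), an interval that holds 0. Mir205 exceeded the chromosome 6 locus by more than counting error, the chromosome 6 locus minus Mir205 being -2.33 (-2.93 to -1.74), and Mir203 minus Mir205 was -2.07 (-2.60 to -1.56). These 6 pairs cover all pairs of the 4 loci.

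Genes of 1 locus also differed from each other. Mir200b exceeded Mir200a, 695 bases away, by a log2 ratio difference of 2.19 (exact conditional 95% interval 1.41 to 2.93). Mir429 exceeded Mir200a by 1.42 (0.64 to 2.16) and Mir200b exceeded Mir429 by 0.77 (0.23 to 1.31). Mir200c minus Mir141 was 0.79 (-0.29 to 1.97), within counting error. For scale, 98 pairs of neighbouring detected genes lay on 1 strand under 10 kb apart with at least 100 counts per gene over both libraries. Their median absolute difference of log2 ratios was 0.68, the 95th percentile 2.03, and 4 pairs, Mir200b with Mir200a among them, reached the difference of that pair. The largest difference was 2.38. The 4.17 between the chromosome 4 and chromosome 6 loci lies beyond that range, though genes of different loci do not share the closeness of these pairs. Among genes with the same seed at different loci, Mir200b minus Mir200c was 4.64 (4.15 to 5.13), Mir429 minus Mir200c 3.87 (3.38 to 4.36) and Mir200a minus Mir141 3.24 (1.99 to 4.54).

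Markers of liver, kidney and gut, and skeletal muscle were also higher in replicate 2, namely Mir122, Mir192, Mir194-2, Mir206 and Mir499. The liver marker Mir122 had 1080041 counts in replicate 2 and 10996 in replicate 1, a log2 ratio of 6.64. The kidney and gut list of Mir192, Mir194-1, Mir194-2, Mir215 and Mir204 summed to 5969 counts (0.119% of miRNA counts) in replicate 2 and 547 (0.0144%) in replicate 1. Of its 5 genes 3 were detected and 2 called higher, Mir192 at a log2 ratio of 4.28 and Mir194-2 at 3.18, while Mir204 was at 0.22 and not called, and none of the 5 was at 0 in both libraries. The skeletal muscle list summed to 7861 counts in replicate 2 and 116 in replicate 1, nearly all of Mir206, with 2 of 7 genes detected, both called higher. Below the detection minimum, Mir1a-2 had 4 counts in replicate 2 and 0 in replicate 1, and Mir133b 3 and 0. A further 3 were at 0 in both libraries (Mir1a-1, Mir133a-1 and Mir133a-2, members of multicopy families whose reads are uncertain in such counts). The part of these tissues in the miR-200 result was not tested. Mir126a of endothelium, at 14.1% of counts in replicate 2 and 14.2% in replicate 1, was not called. All 4 genes of the brown fat list were detected and none was called (6.71% of counts in replicate 2, 7.94% in replicate 1). These shares are not scaled, and Mir122 lowers those of replicate 2. On scaled counts the median log2 ratio of the brown fat list was 0.59, beside -0.06 over all 358 genes. Of the leukocyte list 1 of 4 genes was called lower (5385 counts in replicate 2, 8200 in replicate 1), and of the erythroid list 1 of 3 (2819 counts in replicate 2, 8490 in replicate 1). Their median log2 ratios on scaled counts were 0.23 for the leukocyte list and -0.37 for the erythroid list. All these calls stand beside 9.22% of the 358 genes called higher and 8.66% called lower.

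**Figure D4:**
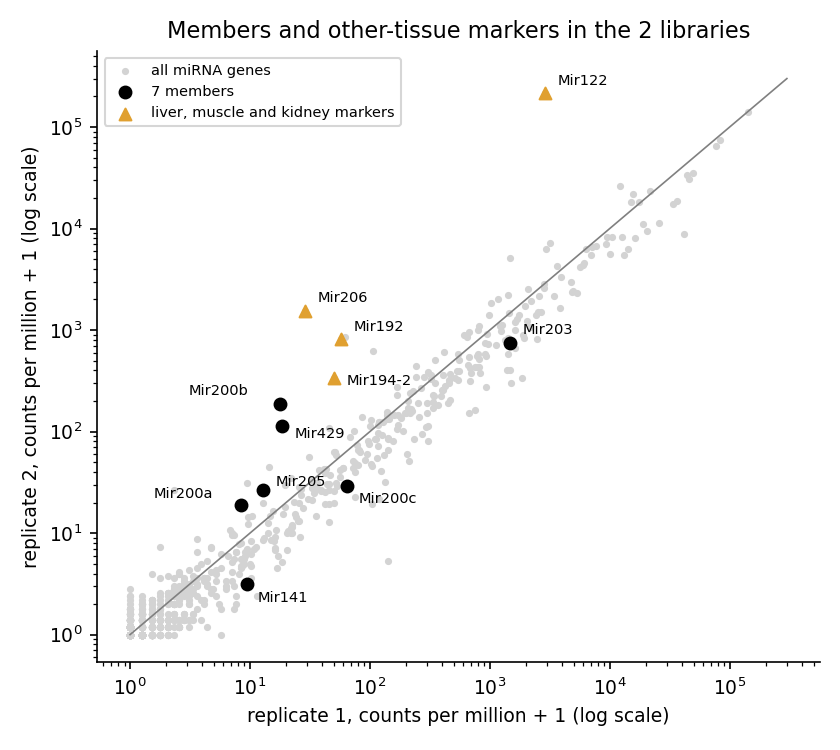
CPM plus 1 of every miRNA gene, replicate 2 on the vertical and replicate 1 on the horizontal axis, both log scales, with the line of equal levels; black points are the 7 members and triangles are Mir122, Mir206, Mir192 and Mir194-2. Mir200b and Mir429 lie above the line, while Mir203 and Mir200c lie below it. The triangles also lie above it, and all of them are markers called higher in replicate 2. Other genes of the marker lists, such as Mir204 (log2 ratio 0.22, not called), are not picked out.

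Other miRNA genes known from epithelia did not follow 1 direction. Of a list of 15, 11 were detected, with 3 called higher, 3 lower and 5 not called. Over all 358 genes, 9.22% were called higher and 8.66% lower. The median log2 ratio of the list was -0.22 over those detected, beside -0.06 over all 358 genes. The list summed to 2.07% of miRNA counts in replicate 2 and 3.79% in replicate 1, mostly from Mir375, a miRNA of endocrine and neuroendocrine cells. Mir375 stood at 17616 CPM in replicate 2 and 33797 CPM in replicate 1 and was not called. Mir182, of the Mir183 cluster of sensory and neuroendocrine epithelia, stood at 1003 CPM in replicate 2 and 796 CPM in replicate 1, also not called. Mir31, of skin and hair follicles, was called lower, with 400 CPM in replicate 2 and 1397 CPM in replicate 1. The genes called higher were Mir192, Mir194-2 and Mir183, and the others called lower were Mir34b and Mir34c, of multiciliated cells. Mir183, Mir34b and Mir34c were named after their values were seen, as were Mir145a and Mir199a-2. The list shares 4 genes with that of kidney and gut. On the mesenchymal side, 6 of 7 stromal and smooth muscle genes were detected, with Mir145a and Mir214 called higher, Mir140 and Mir199a-2 lower and 2 not called. Their median log2 ratio was 0.02, and Mir143, the most abundant of them and a miRNA of smooth muscle, stood at 30816 CPM in replicate 2 and 45426 CPM in replicate 1, not called.

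By likeness of the log2 ratio across the 2 libraries, the genes of at least 100 mean counts nearest to the chromosome 4 locus (3.37) were Mir194-2 at 3.18, Mir301 at 2.98 and Mir483 at 4.24. Only 1 of 259 such genes, Mir194-2, lay within 0.25 of it. The chromosome 6 locus (-0.80) had 32 of 260 genes as close, led by Mir598, Mir107 and Mir93, and Mir203 had 55 of 260, led by Mir10a, Mir500 and Mir669l. Mir205 had 7 of 261, led by Mir125a, Mir22 and Mir99b at 1.53, 1.53 and 1.60. This likeness rests on 1 ratio per gene from 2 libraries.

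Mir203 was the one member with counts on its opposite strand above the limit that a count of 0 allows. Its own strand had 3773 counts in replicate 2 and 5563 in replicate 1, and the opposite strand 203 in replicate 2 and 258 in replicate 1. The opposite strand made up 5.11% of the stranded counts in replicate 2, with a Wilson 95% interval of 4.46 to 5.83, and 4.43% in replicate 1, with one of 3.93 to 4.99, a mean of 4.77% ± 0.476 (SD, n = 2). The intervals of the share overlap between the libraries. The level was less steady, as scaled opposite-strand counts were lower in replicate 2 by more than counting error. Their log2 ratio was -0.32 (95% interval -0.60 to -0.05), beside -0.54 for the own strand. The own strand minus the opposite strand had a log2 ratio difference of -0.21 (exact conditional 95% interval -0.49 to 0.07), an interval that holds 0. Of the other members, Mir200a had 1 opposite-strand count in replicate 1 and 0 in replicate 2, and the rest had 0 in both. For Mir200b the 0 counts allow a share of up to 0.317% in replicate 2 and 4.69% in replicate 1, and for Mir429 up to 0.524% in replicate 2 and 4.55% in replicate 1. Mir200c, at up to 2.11% in replicate 2 and 1.26% in replicate 1, was the one member without such counts whose limits lay under the share of Mir203 in both libraries. The replicate 1 limits of Mir200b, Mir429, Mir205 (6.67%) and Mir141 (9.38%), and the replicate 2 limit of Mir141 (27.3%), lay above the share of Mir203 in that library, so a like share was not detectable there. The 1 count of Mir200a in replicate 1 was a share of 3.45%, with a Wilson 95% interval of 0.611 to 17.2 that holds the share of Mir203.

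In GENCODE M21, 64 miRNA genes have a miRNA gene annotated on the other strand and 2138, Mir203 among them, have none. The opposite-strand column summed to 1162544 counts in replicate 2 and 960065 in replicate 1 over all 2202 genes, nearly all of it at the 64 genes with such a partner. Over the 2138 genes without one it held 257 counts in replicate 2 and 362 in replicate 1, of which Mir203 took 79.0% in replicate 2 and 71.3% in replicate 1. The highest count at any other of them was 9 in replicate 2 and 13 in replicate 1. Among the 164 other detected genes with at least 1000 own-strand counts over both libraries, the highest opposite-strand share was 0.414% and the median 0%.

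**Figure D5:**
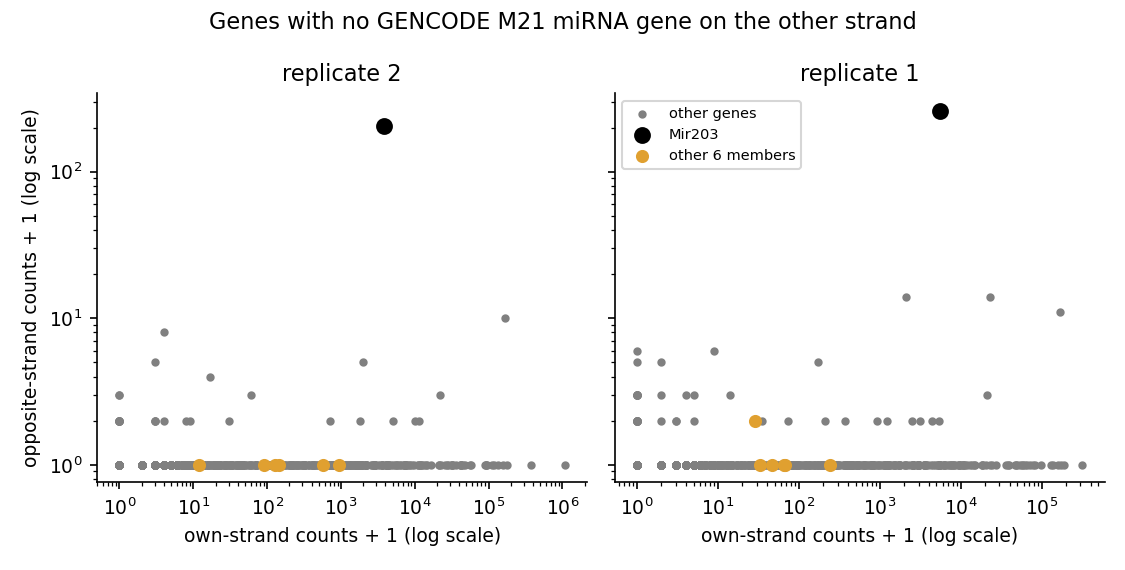
Opposite-strand counts plus 1 against own-strand counts plus 1, both log scales, for miRNA genes with no GENCODE M21 miRNA gene on the other strand, replicate 2 on the left and replicate 1 on the right. Mir203, in black at 203 opposite-strand counts in replicate 2 and 258 in replicate 1, stands apart from all other genes, none of which passes 9 in replicate 2 or 13 in replicate 1.

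RefSeq does annotate a gene on that strand, Gm51289, also listed as Mir203b, on the minus strand of chromosome 12 from 112130887 to 112130946. It was 1 of 3 genes without a GENCODE M21 partner to have a RefSeq hairpin opposite. The 2 hairpins are shown because they face each other where these reads were counted. They are read 5′ to 3′ each on its own strand (RefSeq, GRCm38.p6), with the annotated mature strands in capitals. The whole Gm51289 hairpin is the reverse complement of part of the Mir203 hairpin.
Mir203 (plus strand): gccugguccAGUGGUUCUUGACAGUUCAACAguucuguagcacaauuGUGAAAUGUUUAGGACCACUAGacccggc
Gm51289 (minus strand): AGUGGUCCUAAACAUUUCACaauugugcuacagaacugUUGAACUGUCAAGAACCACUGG

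The mature strands opposite each other overlap by 20 bases, miR-203-5p with miR-203b-3p and miR-203-3p with miR-203b-5p. The arms of a hairpin pair with each other, so a hairpin and its reverse complement resemble each other. The 4 mature strands are shown with the seed in capitals to compare their targeting sequence.
mmu-miR-203-3p: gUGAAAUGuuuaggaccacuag
mmu-miR-203b-3p: uUGAACUGucaagaaccacugg
mmu-miR-203-5p: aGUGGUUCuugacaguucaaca
mmu-miR-203b-5p: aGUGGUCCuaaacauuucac

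Position by position from the 5′ end, miR-203-3p and miR-203b-3p differ at 6 of 22 positions, with A6C in the seed. miR-203-5p and miR-203b-5p differ at 5 of 20, with U7C in the seed. No other mature miRNA in the RefSeq table had any of these 4 seeds. The count tables hold no read sequences, so whether the opposite-strand counts come from either mature strand of Gm51289 was not tested. If counted as a gene, the opposite strand would stand at 40.3 CPM in replicate 2 and 67.9 CPM in replicate 1, a mean of 54.1 ± 19.5 CPM (SD, n = 2). That level lies above the means of Mir200c, Mir205, Mir200a and Mir141, and would take rank 224 in replicate 2 and rank 212 in replicate 1. Its range overlaps that of Mir200c, at 28.2 CPM in replicate 2 and 62.9 CPM in replicate 1, though it lay above Mir200c in each library. In the column that ignores strand, Mir203 held 3976 in replicate 2 and 5821 in replicate 1, the sum of both strands.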

How the data were processed

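Small RNA libraries of 2 biological replicates were used. The authors deposited, for each library, raw counts per miRNA gene. The build, mm10, and the annotation, GENCODE M21, are named in text files that were deposited with them. Which aligner, counter and trimming were used was not given in the sources used here, and no table has a header. Of the 3 count columns, the stranded one with more counts was read as the gene's own strand and the other as the opposite strand. Library sizes leave out the 4 lines that name no gene. Reads mapping to several places, which those lines report, were 25.0% of reads in replicate 2 and 28.0% in replicate 1, and unmapped reads were 23.9% in replicate 2 and 26.9% in replicate 1.

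Symbols for all 2202 identifiers came from GENCODE M21, and sequences from RefSeq. Log2 ratios (replicate 2 over replicate 1) used TMM factors of 0.862 for replicate 2 and 1.16 for replicate 1 over detected genes and a prior count of 0.5, with Clopper-Pearson intervals. With 1 library a side, no quasi-likelihood test applied. The binomial test was checked on simulated counts that held counting error alone, so the check cannot bear on the spread between animals. Alternatives were DESeq2 size factors, library totals alone, Mir122 left out, the unstranded column, other count minimums and prior counts, edgeR's exact test, no minimum on the ratio, hairpin length, the most abundant member of each locus left out, and each replicate left out. By rule the text names the members, any gene annotated opposite a member, up to 3 genes of highest mean CPM per list, the 3 nearest genes by ratio for each locus, and the genes next above and below each member in level. Other list genes were named as markers or as members of a list, or after their values were seen where the text says so. Members and lists were chosen with earlier results of these data known. Scaling used edgeR 4.0.16 and DESeq2 1.42.0 in R 4.3.3, and tests used scipy 1.17.1 in Python 3.11.15, with pandas 2.3.3 and numpy 2.4.6. Figures were drawn with matplotlib 3.10.9.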

Additional observations from a re-analysis of the deposited data

How the results depend on the processing

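The direction of all 7 members held under every scaling tried (TMM, DESeq2 size factors, library totals, Mir122 left out). Library totals alone moved the median log2 ratio of all genes from -0.06 to -0.49 and called 2 members lower, adding Mir200c at -1.16, with 4 still higher, beside 79 of all 358 genes lower and 18 higher. A minimum of 100 counts left 2 members in the test and called 0 higher and 0 lower, beside 18 higher and 19 lower of all 246 genes tested. edgeR's exact test called 1 member higher and 0 lower, beside 5 higher and 1 lower of all 358 genes. Without the ratio minimum 3 were called lower, Mir200c and Mir203 being added, beside 126 of all 358 genes. The other alternatives for these counts gave 4 higher and 1 lower. Over all genes these alternatives called 30 to 39 higher and 26 to 37 lower, of 330 to 588 genes tested. With reads counted without regard to strand the members held 0.187% of counts, because genes such as Mir126a leave that total. Leaving out each replicate gave 0.112 to 0.159% for the 7 members, 0.00416 to 0.0320% for the chromosome 4 locus, 0.00304 to 0.00714% for the chromosome 6 locus and 4.43 to 5.11% for the opposite strand of Mir203, and kept 3 to 7 members at their place in the order by level. The 3 was without replicate 2. The difference between the chromosome 4 and chromosome 6 loci was 4.16 with the unstranded column and 4.36 with the most abundant member of each locus left out. A ratio between libraries has no value with a replicate left out. Mir141, Mir200a and Mir205 rest on the fewest counts, and Mir141 has the widest interval.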
